A study of Mus musculus with 17 samples.

Results

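The 132 genes described here are the long noncoding RNA genes with a measurable level in at least 1 of 4 groups of sorted mouse macrophages. They were chosen by measured values: of 5115 genes that the deposited table types as lincRNA, antisense, lncRNA or processed_transcript, 132 reached a group mean of 5 CPM (counts of the gene per 1000000 counts in its library) in 1 group or more. The table holds 40548 genes in all, and 9907 genes of other types reached the same level. The macrophages came from Cx3Cr1-GFP/WT mice, a reporter line in which cells with an active Cx3cr1 gene carry green fluorescent protein, on the C57BL/6 strain. Every animal therefore carried the reporter, and the fluorescence itself was the sort criterion of 1 group. Adipose tissue macrophages from mice on a high fat, high sucrose diet (ATMs-HFD, 5 libraries) were sorted on F4/80 and CD64. Liver macrophages positive for the reporter came from mice on that diet (Cx3cr1pos macs-HFD, 4 libraries). Kupffer cells, the resident macrophages of liver, were sorted as TIM4-expressing cells with high F4/80 from mice on that diet (HFD KC, 5 libraries) or on standard mouse chow (STD KC, 3 libraries). Feeding lasted 16 weeks. The labels give neither the sex and age of the mice nor whether libraries are separate animals or pools, so p-values measure the spread between these libraries. Of the HFD KC libraries, hfd1 and hfd2 carry the sort label frac_neg, as do the STD KC and ATMs-HFD libraries, whereas hf1, hf2 and hf3 carry the label CD68, and the Cx3cr1pos macs-HFD libraries frac_pos.

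Long noncoding RNAs are transcripts without a long open reading frame that are mostly spliced and polyadenylated like messenger RNAs. Some act where they are made, on the expression of a neighbouring gene. Others organise nuclear bodies or bind proteins and microRNAs elsewhere, and many serve as the precursors from which small nucleolar RNAs or microRNAs are cut. In macrophages they are known for strong cell-type and stimulus dependence, and several take part in inflammatory and lipid responses.

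By the table's types the 132 genes comprised 56 lincRNA genes, 44 processed transcripts and 32 antisense genes, and none was typed lncRNA. Of the symbols, 44 were proper names and 88 were clone-type names such as Gm13994. All 132 were found in the GENCODE M21 annotation, none of them as protein-coding. RefSeq (assembly GRCm38.p6) matched 108 of them and lists 12 as protein-coding genes, among them Ifi30, Cct6a, Trerf1, Zswim6, Ptpmt1 and Tctn2. For these 12 the count row may hold noncoding transcripts of a coding locus, and they are marked as coding in RefSeq where they are named. RefSeq gives studied names to 3 of the clone-type symbols and calls Gm14005 Morrbid, AI427809 Mexis and 1700020I14Rik Oip5os1. Just inside the level floor stood Gm19461 (5.01 CPM in its highest group), Map2k3os (5.05 CPM) and Gm15478 (5.09 CPM). Just outside stood Gm29340 (5.00 CPM, 4.995 before rounding), Gm13373 (4.94 CPM) and Gm17066 (4.85 CPM).

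Libraries held 25687522 to 38272594 counts. The 132 genes together took 0.648% to 1.53% of them, and most of that came from Gm42418 and Malat1. Without these, the share was 0.281% to 0.367% in every library. Gm42418, singled out after its values were seen, is listed by RefSeq as the pseudogene Rn18s-rs5, a copy of ribosomal RNA sequence, so its counts are uncertain. It read 1761 to 3713 CPM in ATMs-HFD, 2674 to 5466 CPM in Cx3cr1pos macs-HFD, 2736 to 7826 CPM in HFD KC and 963 to 2571 CPM in STD KC, with both high fat diet liver groups above STD KC and ATMs-HFD overlapping all 3.

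Many of the genes were over the floor in some groups only. It was reached in all 4 groups by 64 genes, in 3 groups by 14, in 2 groups by 19 and in 1 group by 35. Of the genes over the floor in 1 group, 18 were so in ATMs-HFD, 2 in Cx3cr1pos macs-HFD, 2 in HFD KC and 13 in STD KC. Another 8 genes were over the floor in the 3 liver groups and under it in ATMs-HFD. The highest of the 4 group means was in ATMs-HFD for 54 genes, in Cx3cr1pos macs-HFD for 15, in HFD KC for 16 and in STD KC for 47. These are 40.9% of the 132 for ATMs-HFD, 11.4% for Cx3cr1pos macs-HFD, 12.1% for HFD KC and 35.6% for STD KC, and among the 9907 genes of other types the shares were 40.2% for ATMs-HFD, 21.3% for Cx3cr1pos macs-HFD, 13.6% for HFD KC and 24.9% for STD KC. A gene over the floor in 1 group alone had to differ between groups, so these counts describe the selection as well as the cells. The spread of group means, as the log2 ratio of the highest to the lowest, had a median of 1.27 over the 132 genes and 0.60 over the 9907 genes of other types.

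Levels can be compared between genes per kilobase of annotated exon. By that measure (mean CPM per kb, exon lengths of GENCODE M21) AW112010 stood at 37.2 in ATMs-HFD, 509.8 in Cx3cr1pos macs-HFD, 656 in HFD KC and 732 in STD KC. Malat1, the RNA of nuclear speckles, stood at 598 CPM per kb in ATMs-HFD, 334 in Cx3cr1pos macs-HFD, 404 in HFD KC and 418 in STD KC. In the liver groups AW112010 was thus the more abundant transcript per length, and in ATMs-HFD Malat1 was. Ifi30, which RefSeq lists as the coding gene of a lysosomal thiol reductase, stood at 183 CPM per kb in ATMs-HFD, 271 in Cx3cr1pos macs-HFD, 394 in HFD KC and 316 in STD KC. Tug1, a transcript with nuclear and cytoplasmic roles, was nearly level at 16.9 CPM per kb in ATMs-HFD, 15.6 in Cx3cr1pos macs-HFD, 16.95 in HFD KC and 18.1 in STD KC. Values from here on are CPM of single libraries, in the order hfd1, hfd2, hf1, hf2, hf3 for ATMs-HFD and HFD KC, hf1, hf2, hf3, hfd2 for Cx3cr1pos macs-HFD, and std1, std2, std3 for STD KC.

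The design gives 4 comparisons, each tested with edgeR's quasi-likelihood test over 15285 genes. A gene is called when its Benjamini-Hochberg adjusted p is under 0.05, and only called genes are said to have risen or fallen. All 132 long noncoding RNA genes were testable in each comparison. In ATMs-HFD against HFD KC, 44 of the 132 rose and 48 fell (33.3% and 36.4%). Over all genes tested, 23.8% rose and 25.2% fell. In ATMs-HFD against Cx3cr1pos macs-HFD, 36 rose and 41 fell, with 18.9% of all genes tested rising and 20.8% falling. In Cx3cr1pos macs-HFD against HFD KC, 11 rose and 17 fell, with 5.85% of all genes rising and 7.48% falling. In HFD KC against STD KC, 2 rose and 2 fell, with 2.27% of all genes rising and 1.13% falling. The diet comparison called the fewest long noncoding RNAs and the adipose comparisons the most, as was so for all genes. ATMs-HFD, Cx3cr1pos macs-HFD and HFD KC libraries each enter several of these comparisons, so their fold changes are given side by side and not counted as repeats.

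Among genes of other types at the same floor, 23.4% rose and 28.3% fell in ATMs-HFD against HFD KC. Among the 93 long noncoding RNA genes whose mean over all 17 libraries was at or over the floor, 29 rose and 29 fell. Within the libraries named hf alone, 75 of the 132 were called in that comparison, all of them among the 92. The median log2 fold change over the 132 genes was -0.08 in ATMs-HFD against HFD KC, -0.15 against Cx3cr1pos macs-HFD, -0.03 in Cx3cr1pos macs-HFD against HFD KC and -0.04 in HFD KC against STD KC. Over all genes tested the median was 0.00 in ATMs-HFD against HFD KC, -0.03 against Cx3cr1pos macs-HFD, 0.00 in Cx3cr1pos macs-HFD against HFD KC and 0.02 in HFD KC against STD KC. Changes beyond 4-fold between ATMs-HFD and HFD KC were called for 40 of the 132: 16 rose and 24 fell. Of all 15285 genes tested, 1201 rose and 1413 fell beyond 4-fold. Of the 9907 genes of other types at the same floor, 415 rose and 727 fell so. These are bulk libraries, in which fewer cells of a type and less RNA per cell cannot be told apart.

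**Figure D1:**
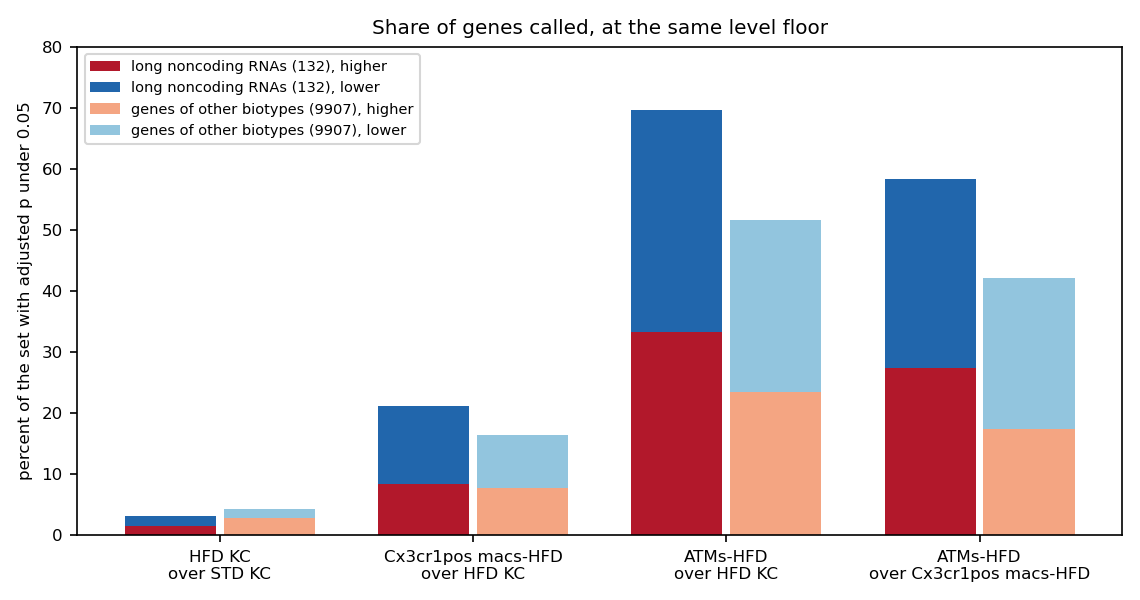
Percent of the 132 long noncoding RNA genes and of the 9907 genes of other types at the same floor that were called higher or lower in each of the 4 comparisons (pairs of stacked bars, the lower calls drawn on top of the higher ones). In ATMs-HFD against HFD KC the 2 segments of the long noncoding RNA bar are 33.3% and 36.4% high, and those of the other genes 23.4% and 28.3%.

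**Figure D2:**
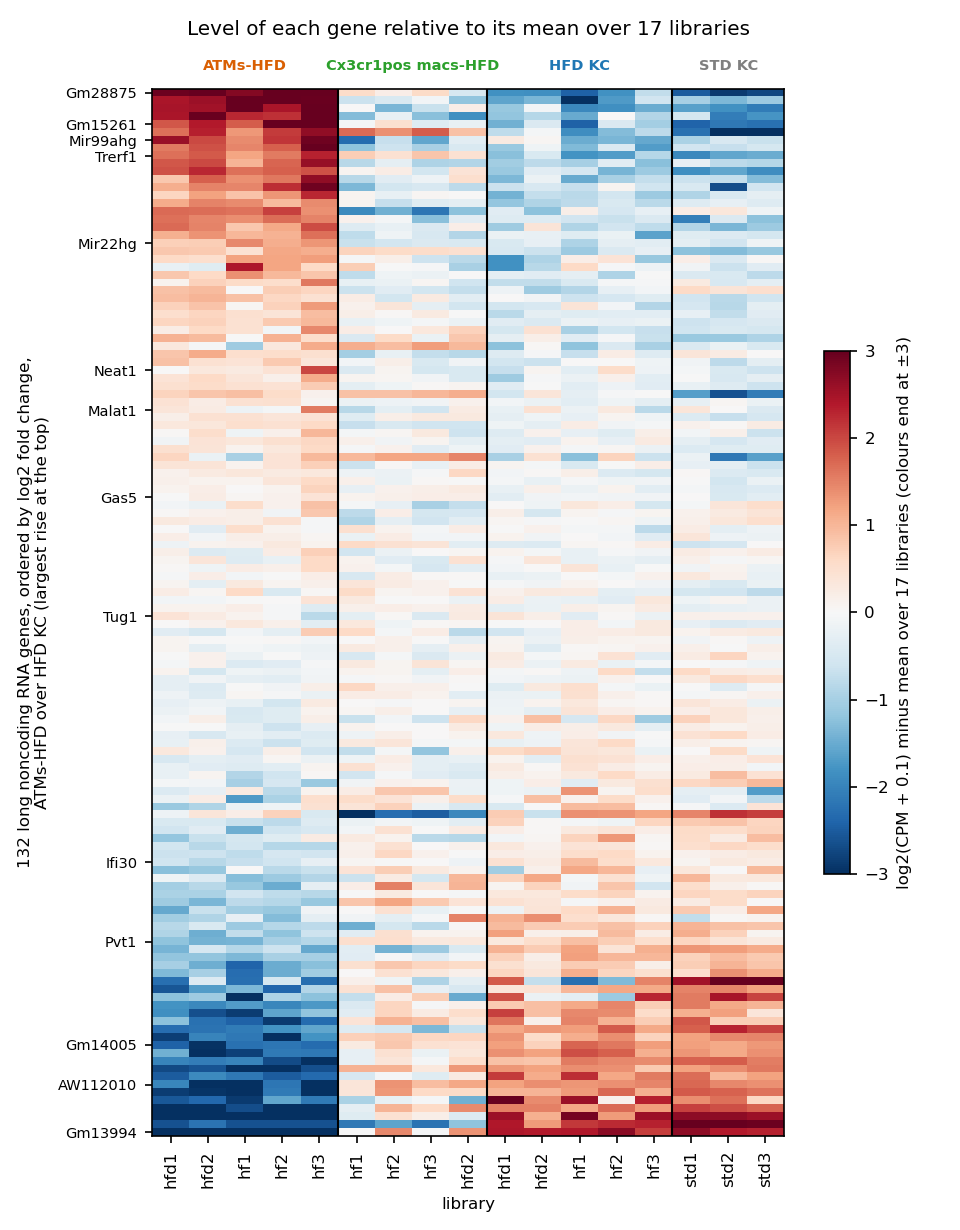
Heatmap of the 132 genes (rows, ordered by their log2 fold change between ATMs-HFD and HFD KC) in the 17 libraries (columns, grouped from left to right as ATMs-HFD, Cx3cr1pos macs-HFD, HFD KC and STD KC), coloured by the gene's log2(CPM + 0.1) minus its mean over the libraries, with colours ending at 3 either way. The 5 ATMs-HFD columns stand apart at both ends of the order, where 16 genes rose and 24 fell more than 4-fold. Of all 15285 genes tested, 1201 rose and 1413 fell that far.

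The sort genes and the markers of several cell types differed between the groups. Timd4, which encodes TIM4, read 4.00 to 8.18 CPM in ATMs-HFD, 25.4 to 42.3 CPM in Cx3cr1pos macs-HFD, 387 to 1611 CPM in HFD KC and 1216 to 1517 CPM in STD KC. Cx3cr1 read 9.28 to 29.9 CPM in ATMs-HFD, 283 to 461 CPM in Cx3cr1pos macs-HFD, 4.87 to 14.7 CPM in HFD KC and 2.76 to 4.07 CPM in STD KC. Among the HFD KC libraries, hfd2 and hf2 had the lowest Timd4 (387 and 1012 CPM, against 1216 to 1611 CPM in the others) and the highest Cx3cr1 (14.7 and 13.8 CPM, against 4.87 to 8.96 CPM). Without hfd2, 90 long noncoding RNAs were called in ATMs-HFD against HFD KC, 30 in Cx3cr1pos macs-HFD against HFD KC and 3 in HFD KC against STD KC. Without hf2, 90 were called in ATMs-HFD against HFD KC, 28 in Cx3cr1pos macs-HFD against HFD KC and 5 in HFD KC against STD KC. The summed level of 5 Kupffer cell markers was 167 to 180.5 CPM in ATMs-HFD, 6024 to 13248 CPM in Cx3cr1pos macs-HFD, 31402 to 45641 CPM in HFD KC and 40855 to 42999 CPM in STD KC. The 6 macrophage markers summed to 16001 to 21211 CPM in ATMs-HFD, 14225 to 18621 CPM in Cx3cr1pos macs-HFD, 17612 to 22510.2 CPM in HFD KC and 20041 to 20365 CPM in STD KC. The 5 sinusoidal endothelium markers summed to 58.6 to 97.2 CPM in ATMs-HFD, 474 to 656 CPM in Cx3cr1pos macs-HFD, 1157 to 2496 CPM in HFD KC and 1893 to 2526 CPM in STD KC. The reporter-positive group thus stood between ATMs-HFD and HFD KC in Kupffer cell and endothelium markers. Mesenchyme markers (6 genes) summed to 111 to 296 CPM in ATMs-HFD, 18.8 to 30.97 CPM in Cx3cr1pos macs-HFD, 20.8 to 48.7 CPM in HFD KC and 35.9 to 40.02 CPM in STD KC. B and plasma cell markers (6 genes) summed to 356 to 1329 CPM in ATMs-HFD, 641 to 1912 CPM in Cx3cr1pos macs-HFD, 327 to 782 CPM in HFD KC and 63.9 to 196 CPM in STD KC, and adipocyte markers (4 genes) to 5.02 to 17.5 CPM in ATMs-HFD, 0.732 to 1.103 CPM in Cx3cr1pos macs-HFD, 0.232 to 1.94 CPM in HFD KC and 0.0312 to 0.142 CPM in STD KC. Plin1 and Lep, both adipocyte markers, were at 0 in Cx3cr1pos macs-HFD and HFD KC. Erythroid markers (4 genes) summed to 1.84 to 9.62 CPM in ATMs-HFD, 5.14 to 17.6 CPM in Cx3cr1pos macs-HFD, 12.8 to 81.8 CPM in HFD KC and 12.8 to 22.3 CPM in STD KC. Of 3 platelet markers, Pf4 read 545 to 1119 CPM in ATMs-HFD, 117 to 167 CPM in Cx3cr1pos macs-HFD, 26.2 to 53.3 CPM in HFD KC and 37.0 to 42.3 CPM in STD KC, whereas Ppbp and Itga2b overlapped between ATMs-HFD and HFD KC. Dendritic cell markers (5 genes) summed to 14.2 to 27.96 CPM in ATMs-HFD, 27.99 to 69.97 CPM in Cx3cr1pos macs-HFD, 8.37 to 66.1 CPM in HFD KC and 17.05 to 21.9 CPM in STD KC. Among them, Cd209a read 2.66 to 22.3 CPM in ATMs-HFD, 13.5 to 29.1 CPM in Cx3cr1pos macs-HFD, 0.646 to 4.44 CPM in HFD KC and 0.812 to 1.45 CPM in STD KC. The means of Xcr1, Zbtb46 and Siglech were lower in Cx3cr1pos macs-HFD than in HFD KC. All except Cd209a had a lower mean in ATMs-HFD than in HFD KC. Sums of hepatocyte, T and NK cell and neutrophil markers overlapped between the groups of each comparison. The hepatocyte sum in ATMs-HFD was mostly Trf, at 200 to 250 CPM there and 81.8 to 137 CPM in HFD KC. Alb read 0.315 to 0.782 CPM in ATMs-HFD, 12.96 to 33.4 CPM in Cx3cr1pos macs-HFD and 42.1 to 226 CPM in HFD KC. Apoa1, Ttr, Serpina1a and Fga were also lower in ATMs-HFD than in Cx3cr1pos macs-HFD and HFD KC, without overlap. The part of these cells in the changes of the long noncoding RNAs was not tested.

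Of the transcripts known from immune and lipid responses, AW112010, Gm14005 and Pvt1 were low in adipose macrophages. Of the 6 list members among the 132 (19 of the list were in the table), 3 fell and 1 rose in ATMs-HFD against HFD KC, 3 fell against Cx3cr1pos macs-HFD, and 1 fell in Cx3cr1pos macs-HFD against HFD KC. Their median log2 fold change in ATMs-HFD against HFD KC was -0.94, beside 0.00 over all genes tested. AW112010 is induced in mouse myeloid cells by inflammatory stimuli, and translation of a short reading frame has been described for it. AW112010 read 52.8, 22.4, 10.9, 46.1 and 17.4 CPM in ATMs-HFD, against 263, 526, 393 and 458 CPM in Cx3cr1pos macs-HFD and 474, 539, 517, 534 and 573 CPM in HFD KC. STD KC read 677, 559.7 and 529.8 CPM. Every adipose library was below every liver library. The log2 fold change was -4.22 ± 0.37 (adjusted p = 7.5e-08) against HFD KC, where ± is the standard error, and -3.87 ± 0.37 (adjusted p = 4.1e-07) against Cx3cr1pos macs-HFD.

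Gm14005 (Morrbid) is known to repress the neighbouring pro-apoptotic gene Bcl2l11 in short-lived mouse myeloid cells. It read 1.18, 0.782, 1.34, 1.44 and 1.29 CPM in ATMs-HFD, 8.21, 11.9, 9.25 and 8.999 CPM in Cx3cr1pos macs-HFD, 16.1, 10.9, 22.9, 20.4 and 16.2 CPM in HFD KC and 16.1, 15.01 and 16.9 CPM in STD KC. Adipose libraries lay below all others. Reporter-positive liver libraries lay between them and the Kupffer libraries, overlapping HFD KC through its hfd2 library. Gm14005 fell by 3.93 ± 0.22 on the log2 scale in ATMs-HFD against HFD KC (adjusted p = 2.8e-10), and its log2 fold change in Cx3cr1pos macs-HFD against HFD KC was -0.84 ± 0.20 (adjusted p = 0.0097). Bcl2l11 itself had log2 fold changes of 0.58 ± 0.09 (adjusted p = 6.5e-05) in ATMs-HFD and 0.57 ± 0.10 (adjusted p = 8.5e-04) in Cx3cr1pos macs-HFD, both against HFD KC. Between ATMs-HFD and Cx3cr1pos macs-HFD, where Gm14005 did not overlap either, Bcl2l11 was level, at 0.01 ± 0.10 (adjusted p = 0.93). A link between the 2 genes was not tested. Pvt1, transcribed next to the Myc oncogene, read 7.599, 6.59, 6.75, 8.88 and 9.72 CPM in ATMs-HFD against 22.01, 25.8, 33.3, 29.7 and 25.2 CPM in HFD KC. The groups did not overlap, and the log2 fold change was -1.88 ± 0.13 (adjusted p = 5.1e-09). Myc had -1.17 ± 0.13 (adjusted p = 8.7e-07) in the same comparison.

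The RefSeq promoter windows of Gm14005 and AW112010 run from 250 bases before to 50 after the annotated start. They are shown because these genes and Pvt1 were low together in adipose macrophages, and no window was found for Pvt1. Both strands were searched for GAGGAAG, a core motif bound by the macrophage factor PU.1, and TGANTCA, the motif of AP-1 factors, and matches are in capitals. Over all 32851 RefSeq windows, 13.6% held the PU.1 letters and 7.81% the AP-1 letters. Of 106 windows found for 92 of the 132 genes, 16 and 6 held them. The window of Gm14005 (chr2:128429302-128429601, minus strand, GRCm38.p6) held both, with first bases at -17 and -1 from the start, and that of AW112010 (chr19:11050517-11050816, minus strand) held neither.
Gm14005: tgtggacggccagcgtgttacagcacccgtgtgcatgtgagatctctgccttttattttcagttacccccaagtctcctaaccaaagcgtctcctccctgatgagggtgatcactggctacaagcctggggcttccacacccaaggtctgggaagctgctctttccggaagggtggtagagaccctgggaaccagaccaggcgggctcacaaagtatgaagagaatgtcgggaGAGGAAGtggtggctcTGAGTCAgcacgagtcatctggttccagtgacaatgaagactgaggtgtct
AW112010: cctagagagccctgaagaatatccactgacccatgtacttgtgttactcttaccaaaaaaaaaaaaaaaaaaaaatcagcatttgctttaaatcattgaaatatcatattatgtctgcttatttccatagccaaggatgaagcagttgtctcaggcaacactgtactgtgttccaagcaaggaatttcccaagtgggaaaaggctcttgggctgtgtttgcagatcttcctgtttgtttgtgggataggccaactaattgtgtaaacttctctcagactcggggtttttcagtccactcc
A match is a run of letters and no measure of binding.

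Several further transcripts were nearly confined to the liver libraries. Gm13994, a lincRNA with no assigned role, had 3 counts in the 5 ATMs-HFD libraries together and 2390 in HFD KC. Its ratio of pooled CPM (summed counts over summed library totals) was 0.00144. The exact 95% interval, of counting error only and not of the spread between libraries, was 0.000296 to 0.0042. Per library Gm13994 read 0.037997, 0, 0, 0.0293 and 0.0286 CPM in ATMs-HFD, 2.41, 6.77, 2.36 and 6.29 CPM in Cx3cr1pos macs-HFD, 13.5, 13.1, 13.4, 16.5 and 10.5 CPM in HFD KC and 16.2, 12.99 and 12.4 CPM in STD KC. Its level in the reporter-positive libraries lay between the adipose and the Kupffer libraries. 5330411J11Rik, chosen after its values were seen, had 1 count over ATMs-HFD against 456 over HFD KC, a ratio of pooled CPM of 0.00251 with an interval of 6.3e-05 to 0.0141. It read 0.0389, 0.105, 0.0306 and 0.163 CPM in Cx3cr1pos macs-HFD against 3.13, 1.38, 2.56, 2.76 and 2.93 CPM in HFD KC and 5.25, 6.34 and 4.58 CPM in STD KC. The TIM4-sorted libraries thus lay above all others. Gm11707 read 0.114, 0.163, 0.0983, 0.176 and 0.0858 CPM in ATMs-HFD, 2.06, 3.71, 3.03 and 1.99 CPM in Cx3cr1pos macs-HFD and 16.3, 5.701, 20.3, 6.59 and 16.4 CPM in HFD KC, with log2 fold changes against HFD KC of -6.72 ± 0.43 (adjusted p = 1.4e-09) and -2.25 ± 0.34 (adjusted p = 2.5e-04). These steps between the 3 high fat diet groups did not overlap.

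Bach2os lies antisense to Bach2, which encodes a transcriptional repressor of lymphoid and myeloid cells, and 24.6% of its exon bases overlap Bach2 exons. Bach2os read 3.19, 3.46, 2.56, 2.52 and 3.35 CPM in ATMs-HFD, 44.1, 43.6, 26.6 and 52.2 CPM in Cx3cr1pos macs-HFD, 53.7, 49.4, 56.5, 54.99 and 36.8 CPM in HFD KC and 48.9, 56.2 and 63.5 CPM in STD KC. It fell in ATMs-HFD, by 4.16 ± 0.20 on the log2 scale against HFD KC (adjusted p = 5.0e-11), whereas the 3 liver groups overlapped. Bach2 had a log2 fold change of -0.68 ± 0.23 (adjusted p = 0.019) in that comparison. R74862, antisense to the tetraspanin gene Cd81, read 0.722, 1.14, 0.951, 0.733 and 0.829 CPM in ATMs-HFD against 19.95, 9.96, 21.6, 10.3 and 13.8 CPM in HFD KC, with a log2 fold change of -4.19 ± 0.28 (adjusted p = 2.9e-09), and Cd81 had -2.65 ± 0.15 (adjusted p = 4.7e-10). Where a gene and its antisense partner share exon bases, reads of either could be counted for both, since the strand setting of the counting is not given in the sources used here. Of 4930581F22Rik, Gm13431 and Gm15675, which have no assigned role, the log2 fold changes in ATMs-HFD against HFD KC were -4.33 ± 0.27 (adjusted p = 1.4e-09), -3.93 ± 0.30 (adjusted p = 1.6e-08) and -5.34 ± 0.65 (adjusted p = 3.4e-06). Gm15675 was uneven within HFD KC, at 26.4, 4.43, 9.96, 1.73 and 8.37 CPM, against 0.18998, 0.228, 0.131, 0.469 and 0.286 CPM in ATMs-HFD. It reached the floor of 5 CPM in HFD KC alone, so its falls against HFD KC follow in part from the selection. Its lowest HFD KC libraries were hfd2 and hf2, those of lowest Timd4 and highest Cx3cr1, which were also the lowest for Gm11707 and R74862. But hf2 was not among the lowest for Gm13994, Gm14005 or Gm13431, at 16.5, 20.4 and 17.3 CPM. For these, HFD KC ranged over 10.5 to 16.5, 10.9 to 22.9 and 10.4 to 18.9 CPM. The part of other cells in these levels was not tested. Gm15675 had -5.50 (adjusted p = 3.7e-06) without hfd2, -5.58 (adjusted p = 4.4e-07) without hf2 and -4.55 (adjusted p = 2.1e-06) without hfd1, its highest library.

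Smaller falls in adipose macrophages included abundant transcripts. Ifi30 read 177, 152, 166, 177 and 226 CPM in ATMs-HFD, 282, 267, 272 and 242 CPM in Cx3cr1pos macs-HFD and 370.4, 318, 517, 389 and 337 CPM in HFD KC, with no overlap between any of the 3 groups. Its log2 fold change was -1.20 ± 0.12 (adjusted p = 3.7e-07) in ATMs-HFD and -0.54 ± 0.13 (adjusted p = 0.0096) in Cx3cr1pos macs-HFD, both against HFD KC. The reporter-positive value missed the threshold within the hf libraries, at -0.63 (adjusted p = 0.057). Tmem250-ps, coding in RefSeq, had -1.06 ± 0.12 (adjusted p = 1.7e-06) in ATMs-HFD against HFD KC, and 2310040G24Rik -1.06 ± 0.14 (adjusted p = 9.9e-06). Gdap10 read 36.97, 30.03, 16.6, 18.9 and 21.6 CPM in ATMs-HFD against 63.8, 89.99, 38.5, 55.2 and 36.6 CPM in HFD KC, overlapping through ATMs-HFD hfd1 and HFD KC hf3, with a log2 fold change of -1.29 ± 0.34 (adjusted p = 0.005).

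Several microRNA host transcripts were high in adipose macrophages. Of the 8 genes among the 132 that hold an annotated microRNA gene on their own strand, 5 rose in ATMs-HFD against HFD KC, namely Mir22hg, Mir99ahg, Gm26532, Mir17hg and Ftx, and 5 rose against Cx3cr1pos macs-HFD. The others, Dleu2, F630028O10Rik and Zswim6, were not called against HFD KC. Over all genes tested, 23.8% rose in ATMs-HFD against HFD KC and 18.9% against Cx3cr1pos macs-HFD. Mir99ahg, Mir17hg and Ftx reached the floor of 5 CPM in ATMs-HFD alone, so their rises there follow in part from the selection. The median log2 fold change of the 8 was 1.24 against HFD KC, beside 0.00 over all genes tested. In these comparisons 0 of the 8 fell by edgeR, by DESeq2 or at an unadjusted p under 0.05. In Cx3cr1pos macs-HFD against HFD KC and in HFD KC against STD KC, 0 of the 8 were called by edgeR or DESeq2, and 0 passed an unadjusted p under 0.05. The mature microRNAs of these hosts are shown because they are the best known products of the loci. They were not measured here, and the host's reads say nothing about processing. Sequences are from RefSeq (GRCm38.p6), and capitals mark the seed, bases 2 to 8, which pairs with target messages. The 4 hosts listed first rose in adipose macrophages, whereas Dleu2 and F630028O10Rik were not called.
Mir22hg, mmu-miR-22-3p: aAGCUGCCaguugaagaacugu
Mir99ahg, mmu-miR-99a-5p: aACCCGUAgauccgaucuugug
Mir99ahg, mmu-let-7c-5p: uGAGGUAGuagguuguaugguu
Mir99ahg, mmu-miR-125b-5p: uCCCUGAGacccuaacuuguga
Gm26532, mmu-miR-24-3p: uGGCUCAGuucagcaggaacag
Mir17hg, mmu-miR-17-5p: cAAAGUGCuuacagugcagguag
Mir17hg, mmu-miR-20a-5p: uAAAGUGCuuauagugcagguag
Mir17hg, mmu-miR-18a-5p: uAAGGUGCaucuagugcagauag
Mir17hg, mmu-miR-19a-3p: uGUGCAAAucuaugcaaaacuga
Mir17hg, mmu-miR-19b-3p: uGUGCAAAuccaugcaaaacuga
Mir17hg, mmu-miR-92a-3p: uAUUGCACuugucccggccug
Dleu2, mmu-miR-15a-5p: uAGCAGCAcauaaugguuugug
Dleu2, mmu-miR-16-5p: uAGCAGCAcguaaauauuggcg
F630028O10Rik, mmu-miR-223-3p: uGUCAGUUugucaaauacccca
Within Mir17hg the miR-17-5p and miR-20a-5p seeds are the same, as are those of miR-19a-3p and miR-19b-3p. The Dleu2 products miR-15a-5p and miR-16-5p also share a seed. The loci that rose thus carry different seed families.

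Mir99ahg, host of miR-99a, let-7c and miR-125b, read 18.2, 11.9, 7.93, 13.3 and 22.6 CPM in ATMs-HFD, 0.506, 1.78, 0.919 and 2.35 CPM in Cx3cr1pos macs-HFD, 3.54, 3.04, 0.969, 1.06 and 0.951 CPM in HFD KC and 1.47, 2.08 and 1.79 CPM in STD KC. Its lowest adipose library was above every liver library, and the log2 fold change was 2.84 ± 0.46 (adjusted p = 6.5e-05) against HFD KC and 3.27 ± 0.51 (adjusted p = 8.4e-05) against Cx3cr1pos macs-HFD. Mir22hg, host of miR-22, read 41.1, 42.3, 68.4, 54.1 and 63.2 CPM in ATMs-HFD against 18.2, 21.1, 13.2, 20.9 and 20.1 CPM in HFD KC, with a log2 fold change of 1.43 ± 0.16 (adjusted p = 1.2e-06). The groups stood apart, and both other liver groups lay with HFD KC, at 15.9 to 18.5 CPM in Cx3cr1pos macs-HFD and 16.8 to 23.2 CPM in STD KC. Tlcd2 overlaps Mir22hg on the same strand and shares 10.7% of its exon bases, and Tlcd2 had a log2 fold change of 2.02 ± 0.19 (adjusted p = 1.5e-07). Mir17hg, the precursor of the miR-17-92 cluster known for its role in proliferating cells, read 7.07, 6.097, 3.802, 4.75 and 8.55 CPM in ATMs-HFD and 0.957, 2.77, 1.08, 1.397 and 1.21 CPM in HFD KC, with a log2 fold change of 1.92 ± 0.30 (adjusted p = 4.9e-05). The proliferation markers Mki67 and Top2a summed to 104 to 173 CPM in ATMs-HFD against 49.3 to 100.2 CPM in HFD KC, and their part in the Mir17hg value was not tested.

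Gm26532, which holds the miR-24-2 gene, read 24.2, 30.7, 22.4, 28.5 and 64.7 CPM in ATMs-HFD and 3.71, 7.36, 3.15, 5.98 and 2.48 CPM in HFD KC. The hf3 adipose library was the highest, and all 5 were above all liver libraries. The log2 fold change was 2.79 ± 0.32 (adjusted p = 1.7e-06), and 2.48 (adjusted p = 2.5e-06) without ATMs-HFD hf3. Ftx, a transcript of the X-inactivation centre that holds miR-374b and miR-421, read 6.16, 6.49, 5.9003, 4.92 and 4.404 CPM in ATMs-HFD and 3.19, 2.96, 2.02, 2.19 and 2.46 CPM in HFD KC, with a log2 fold change of 1.04 ± 0.21 (adjusted p = 4.7e-04). Dleu2, host of miR-15a and miR-16, read 9.998 to 19.8 CPM in ATMs-HFD and 10.9 to 16.9 CPM in HFD KC, with overlapping groups and a log2 fold change of 0.08 ± 0.20 (adjusted p = 0.77). F630028O10Rik, which holds the gene of the myeloid microRNA miR-223 and was picked after its values were seen, read 4.73 to 8.72 CPM in ATMs-HFD and 3.49 to 6.57 CPM in HFD KC, with a log2 fold change of 0.12 ± 0.20 (adjusted p = 0.67).

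The promoter window of Mir99ahg (chr16:77329078-77329377, plus strand, GRCm38.p6) held the PU.1 letters with their first base at -64, in capitals, and that of Mir22hg held neither motif.
Mir99ahg: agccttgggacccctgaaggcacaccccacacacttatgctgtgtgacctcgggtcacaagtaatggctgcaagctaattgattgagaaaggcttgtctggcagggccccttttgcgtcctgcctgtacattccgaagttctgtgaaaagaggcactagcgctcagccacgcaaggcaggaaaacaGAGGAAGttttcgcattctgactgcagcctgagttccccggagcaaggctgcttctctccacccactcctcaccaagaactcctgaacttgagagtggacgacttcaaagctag

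Among transcripts that host no microRNA, Gm28875 showed the largest rise of the described genes in adipose macrophages. It read 102, 126, 89.6, 138 and 153 CPM in ATMs-HFD, 19.6, 15.3, 19.6 and 9.52 CPM in Cx3cr1pos macs-HFD, 3.68, 3.64, 2.37, 3.704 and 7.95 CPM in HFD KC and 2.28, 1.73 and 1.91 CPM in STD KC. The 4 groups did not overlap, and the means fell in that order. The log2 fold change was 4.75 ± 0.28 (adjusted p = 6.0e-10) in ATMs-HFD against HFD KC, 1.92 ± 0.26 (adjusted p = 1.0e-04) in Cx3cr1pos macs-HFD against HFD KC and 1.10 ± 0.32 (adjusted p = 0.066) in HFD KC against STD KC. The last of these missed the threshold and passed it with DESeq2, at 1.10 (adjusted p = 0.009). Syne3, which encodes a nuclear envelope protein and lies 3.24 kb away, had a log2 fold change of 3.76 (adjusted p = 6.6e-06) in ATMs-HFD against HFD KC.

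Trerf1, coding in RefSeq for a transcriptional regulator, had a like order. It read 53.3, 60.7, 38.8, 50.1 and 84.3 CPM in ATMs-HFD, 28.4, 23.5, 30.5 and 23.5 CPM in Cx3cr1pos macs-HFD, 7.05, 12.3, 4.82, 5.28 and 9.35 CPM in HFD KC and 4.405, 5.71 and 5.95 CPM in STD KC. The 3 high fat diet groups did not overlap, and the log2 fold change against HFD KC was 2.78 ± 0.24 (adjusted p = 4.6e-08) in ATMs-HFD and 1.78 ± 0.24 (adjusted p = 8.2e-05) in Cx3cr1pos macs-HFD. Gm15261 read 6.003, 8.64, 5.87, 19.5 and 14.8 CPM in ATMs-HFD against 0.522, 1.14, 0.215, 1.15 and 0.739 CPM in HFD KC, with a log2 fold change of 3.75 ± 0.43 (adjusted p = 1.6e-06). 2610203C22Rik read 39.4, 38.4, 37.6, 50.3 and 31.5 CPM in ATMs-HFD, 3.15, 4.36, 2.605 and 5.09 CPM in Cx3cr1pos macs-HFD and 9.45, 5.104, 13.5, 8.47 and 10.1 CPM in HFD KC. It was high in adipose and lowest in the reporter-positive liver group, with log2 fold changes against HFD KC of 2.001 ± 0.24 (adjusted p = 2.3e-06) and -1.27 ± 0.26 (adjusted p = 0.003). 4921531C22Rik read 12.4 to 37.9 CPM in ATMs-HFD and 2.48 to 4.83 CPM in HFD KC, with a log2 fold change of 2.70 ± 0.26 (adjusted p = 1.9e-07). Gm15261 and 4921531C22Rik reached the floor of 5 CPM in ATMs-HFD alone, so their rises there follow in part from the selection.

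**Figure D3:**
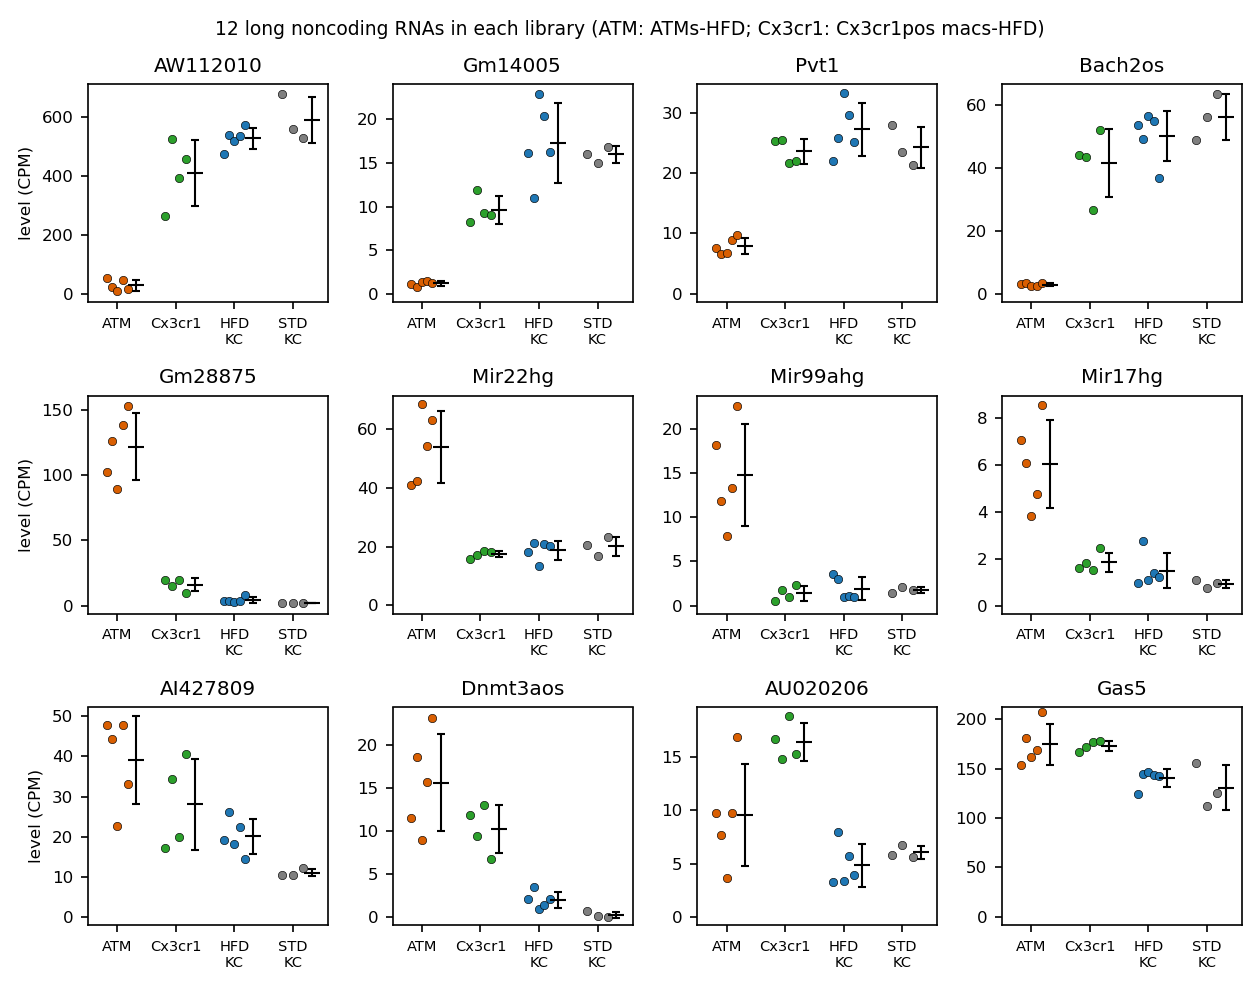
CPM of 12 described genes in each library (points, linear axes from 0), with the group mean and standard deviation, groups from left to right ATMs-HFD (n = 5), Cx3cr1pos macs-HFD (n = 4), HFD KC (n = 5) and STD KC (n = 3). Adipose libraries lie lowest for AW112010, at 52.8 CPM or less, and highest for Gm28875, at 89.6 CPM or more.

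Reporter-positive liver macrophages differed from HFD KC in 28 of the 132 genes. Dnmt3aos lies antisense to Dnmt3a, which encodes a de novo DNA methyltransferase. It read 11.5, 18.6, 8.95, 15.7 and 23.2 CPM in ATMs-HFD, 11.9, 9.41, 13.02 and 6.72 CPM in Cx3cr1pos macs-HFD, 2.09, 3.45, 0.915, 1.397 and 2.06 CPM in HFD KC and 0.687, 0.0946 and 0.0569 CPM in STD KC. Reporter-positive and adipose libraries overlapped, and both stood above HFD KC, which stood above STD KC. The log2 fold change was 2.37 ± 0.43 (adjusted p = 0.0013) in Cx3cr1pos macs-HFD and 2.87 ± 0.42 (adjusted p = 2.7e-05) in ATMs-HFD, both against HFD KC. Dnmt3a was called in neither, at 0.41 ± 0.19 (adjusted p = 0.17) and 0.27 ± 0.18 (adjusted p = 0.24). AU020206 had its highest mean in the reporter-positive group, at 16.7, 14.8, 18.8 and 15.3 CPM in Cx3cr1pos macs-HFD against 3.28, 7.95, 3.34, 5.74 and 3.91 CPM in HFD KC, with a log2 fold change of 1.76 ± 0.32 (adjusted p = 0.0012), and ATMs-HFD spread over 3.67 to 16.9 CPM.

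Bvht, a transcript known from cardiac mesoderm of the mouse embryo, read 2.47, 1.99, 3.05, 2.901 and 2.37 CPM in ATMs-HFD, 9.54, 12.1, 9.22 and 7.04 CPM in Cx3cr1pos macs-HFD and 7.28, 6.84, 5.19, 5.77 and 6.34 CPM in HFD KC. It fell in ATMs-HFD against both liver groups, at -1.38 ± 0.18 (adjusted p = 6.8e-06) against HFD KC and -1.98 ± 0.19 (adjusted p = 3.5e-07) against Cx3cr1pos macs-HFD. The rise in Cx3cr1pos macs-HFD against HFD KC, 0.60 ± 0.18 (adjusted p = 0.038), missed the threshold without Cx3cr1pos macs-HFD hf1, hf2 or hf3 or HFD KC hf1, hf2, hf3 or hfd2, with an adjusted p from 0.051 to 0.16 over these 7 fits. The libraries overlapped. Paired by library name it was 0.59 (adjusted p = 0.074).

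Transcripts that fell in the reporter-positive group included several without an assigned role. G730013B05Rik read 2.102, 4.08, 3.34 and 6.06 CPM in Cx3cr1pos macs-HFD against 11.6, 10.2, 10.1, 11.02 and 9.64 CPM in HFD KC, and Gm13431 read 4.13, 6.77, 4.29 and 6.29 CPM in Cx3cr1pos macs-HFD against 12.9, 11.5, 18.9, 17.3 and 10.4 CPM in HFD KC. The groups did not overlap for either, and the log2 fold changes were -1.41 ± 0.24 (adjusted p = 6.6e-04) and -1.39 ± 0.29 (adjusted p = 0.0037). In that comparison R74862, Gm13994 and Gm15675 had -1.83 ± 0.27 (adjusted p = 2.0e-04), -1.56 ± 0.31 (adjusted p = 0.0028) and -3.27 ± 0.62 (adjusted p = 0.0018), and Gm15675 had -2.53 (adjusted p = 0.003) without HFD KC hfd1. The fall of Gm15675, which was over the floor in HFD KC alone, follows in part from the selection. 4930455G09Rik read 5.36, 5.38, 4.82, 6.21 and 6.12 CPM in ATMs-HFD, 9.69, 11.99, 9.71 and 11.7 CPM in Cx3cr1pos macs-HFD and 19.98, 13.9, 28.96, 24.6 and 24.5 CPM in HFD KC, a stepwise order without overlap. Its log2 fold change in Cx3cr1pos macs-HFD against HFD KC was -1.04 ± 0.17 (adjusted p = 5.0e-04). The Kupffer cell markers, given above, were lower in Cx3cr1pos macs-HFD than in HFD KC as well, and their part in these falls was not tested. Within the hf libraries, 21 of the 28 calls held, and with libraries paired by name 25 did, among 29 in all.

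Diet was compared within the TIM4-sorted Kupffer cells, where 4 of the 132 genes were called. 4930430E12Rik, a processed transcript of no assigned role, read 7.31, 13.8, 8.99, 10.5 and 10.8 CPM in HFD KC against 3.34, 1.67 and 2.45 CPM in STD KC. Every HFD KC library was above every STD KC library, and the log2 fold change was 2.05 ± 0.26 (adjusted p = 3.8e-04). It was called under every alternative tried. The level in Cx3cr1pos macs-HFD was higher again, at 19.9, 20.01, 21.6 and 22.99 CPM, with a log2 fold change against HFD KC of 1.05 ± 0.21 (adjusted p = 0.0031), and in ATMs-HFD it was 17.1, 19.2, 20.3, 15.8 and 11.9 CPM.

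The other calls of the diet comparison were lost without single libraries or within a sort label. Dnmt3aos had a log2 fold change of 2.83 ± 0.60 (adjusted p = 0.015) in HFD KC against STD KC, 2.42 (adjusted p = 0.12) without std2 and 2.33 (adjusted p = 0.095) without std3. With the CD68-labelled HFD KC alone set against STD KC it was 2.35 (adjusted p = 0.055), and with the frac_neg ones 3.33 (adjusted p = 0.0094). These values rest on few STD KC reads, with 22, 3 and 2 counts of Dnmt3aos in std1, std2 and std3. Dnmt3a itself had 0.94 ± 0.22 (adjusted p = 0.023) in HFD KC against STD KC. 2610035D17Rik read 6.44, 3.34, 3.85, 6.01 and 6.71 CPM in HFD KC against 10.8, 9.37 and 10.2 CPM in STD KC, with a log2 fold change of -0.95 ± 0.23 (adjusted p = 0.028). Without any 1 of the 3 STD KC libraries its adjusted p was 0.087 to 0.11. In ATMs-HFD it read 13.1, 13.8, 7.24, 12.01 and 11.3 CPM, above HFD KC without overlap. Gm17354, named after its values were seen, had -0.53 ± 0.13 (adjusted p = 0.027) in HFD KC against STD KC. It was not called within either sort label, and was -0.47 (adjusted p = 0.19) without std2, -0.52 (adjusted p = 0.13) without std3 and -0.53 (adjusted p = 0.054) without HFD KC hfd2. With DESeq2, 11 genes were called in this comparison, the 4 named here among them. The DESeq2 count over all genes is not given here, so the 11 have no background to be set against. At an unadjusted p under 0.05 edgeR's test counted 27 long noncoding RNA genes. By the same measure it counted 2663 of all 15285 genes tested and 1948 of the 9907 genes of other types at the same floor.

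The promoter window of Dnmt3aos (chr12:3862195-3862494, minus strand, GRCm38.p6) is shown for its differences between groups, and held the AP-1 letters with their first base at -199, in capitals.
Dnmt3aos: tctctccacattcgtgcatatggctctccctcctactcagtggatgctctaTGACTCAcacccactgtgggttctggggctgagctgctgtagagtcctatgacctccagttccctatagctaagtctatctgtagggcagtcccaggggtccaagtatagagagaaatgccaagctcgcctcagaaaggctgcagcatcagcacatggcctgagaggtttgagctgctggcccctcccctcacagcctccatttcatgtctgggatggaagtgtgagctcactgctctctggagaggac

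AI427809 (Mexis) is induced by the sterol receptor LXR in mouse macrophages and supports expression of its neighbour Abca1, the cholesterol exporter. It read 47.8, 44.3, 22.8, 47.7 and 33.1 CPM in ATMs-HFD, 17.1, 34.4, 20.04 and 40.6 CPM in Cx3cr1pos macs-HFD, 19.2, 26.1, 18.2, 22.5 and 14.4 CPM in HFD KC and 10.5, 10.6 and 12.2 CPM in STD KC. Every high fat diet library was above every STD KC library, and ATMs-HFD overlapped both high fat diet liver groups. The log2 fold change was 0.86 ± 0.31 (adjusted p = 0.14) in HFD KC against STD KC, which missed the threshold. In ATMs-HFD against HFD KC it was 0.87 ± 0.26 (adjusted p = 0.0098), and 0.82 (adjusted p = 0.088) within the hf libraries. Abca1 had 0.83 ± 0.13 (adjusted p = 0.0021) in HFD KC against STD KC and -0.39 ± 0.11 (adjusted p = 0.0061) in ATMs-HFD against HFD KC. The first RefSeq promoter window of AI427809 (chr4:53270183-53270482, minus strand, GRCm38.p6) is shown beside these differences and held the PU.1 letters with their first base at 33 after the start.
AI427809: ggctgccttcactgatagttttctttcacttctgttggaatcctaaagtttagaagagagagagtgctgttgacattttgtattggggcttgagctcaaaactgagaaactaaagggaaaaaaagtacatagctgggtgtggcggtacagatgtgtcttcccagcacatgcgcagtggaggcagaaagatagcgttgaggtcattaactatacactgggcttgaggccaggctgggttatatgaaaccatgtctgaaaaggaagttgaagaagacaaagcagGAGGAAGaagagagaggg

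Small nucleolar RNA hosts are spliced transcripts whose introns carry the RNAs that guide ribosomal RNA modification. Of 8 such list members among the 132 (19 were in the table), 2 rose and 1 fell in ATMs-HFD against HFD KC, 1 rose against Cx3cr1pos macs-HFD and 2 rose in Cx3cr1pos macs-HFD against HFD KC. In HFD KC against STD KC, 0 were called by edgeR or DESeq2, and 1 passed an unadjusted p under 0.05. Their median log2 fold change in ATMs-HFD against HFD KC was 0.22, beside 0.00 over all genes tested. Snhg5 read 34.96, 38.2, 34.02, 32.2 and 46.2 CPM in ATMs-HFD, 27.7, 24.8, 29.7 and 24.2 CPM in Cx3cr1pos macs-HFD, 13.8, 20.2, 18.98, 19.6 and 19.6 CPM in HFD KC and 20.6, 14.6 and 19.3 CPM in STD KC. The 3 high fat diet groups did not overlap, and the log2 fold change against HFD KC was 0.91 ± 0.12 (adjusted p = 8.5e-06) in ATMs-HFD and 0.54 ± 0.13 (adjusted p = 0.0092) in Cx3cr1pos macs-HFD. Within the hf libraries the value in Cx3cr1pos macs-HFD was 0.47 (adjusted p = 0.072). In ATMs-HFD against Cx3cr1pos macs-HFD it was 0.38 ± 0.13 (adjusted p = 0.026), 0.33 (adjusted p = 0.055) without ATMs-HFD hf3 and 0.38 (adjusted p = 0.053) without Cx3cr1pos macs-HFD hf1.

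Gas5, which also acts as a decoy of the glucocorticoid receptor in human cells, read 153, 181, 162, 169 and 207 CPM in ATMs-HFD, 166, 172, 177 and 178 CPM in Cx3cr1pos macs-HFD, 124, 145, 147, 144 and 143 CPM in HFD KC and 155, 112 and 125 CPM in STD KC. HFD KC lay below both other high fat diet groups without overlap. The differences were small, 0.31 ± 0.10 (adjusted p = 0.04) in Cx3cr1pos macs-HFD and 0.22 ± 0.09 (adjusted p = 0.057) in ATMs-HFD. Without any 1 HFD KC library, or without Cx3cr1pos macs-HFD hf2, hf3 or hfd2, the adjusted p of the reporter-positive rise was 0.055 to 0.13 over these 8 fits. The ATMs-HFD difference missed the threshold, but was called in 12 of 19 alternatives, at 0.25 (adjusted p = 0.017) with DESeq2. Snhg15 and Snhg17 moved in opposite directions in ATMs-HFD against HFD KC, at 0.43 ± 0.14 (adjusted p = 0.019) and -0.54 ± 0.15 (adjusted p = 0.0066), and neither was called within the hf libraries. Zfas1, Snhg6, Snhg12 and Snhg14 missed the threshold there, at 0.22, 0.31, -0.34 and 0.07.

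**Figure D4:**
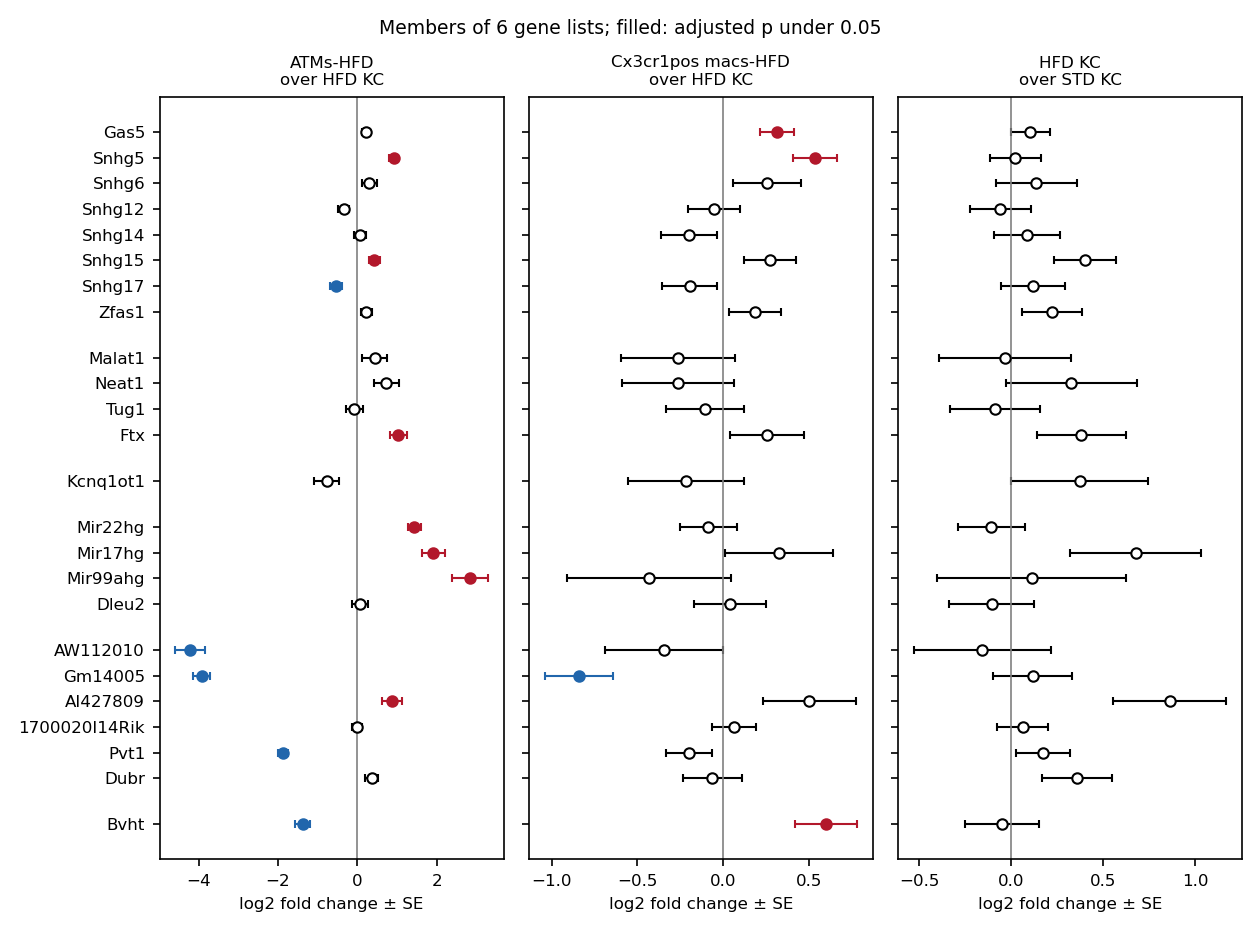
Log2 fold change with standard error of the described list members in ATMs-HFD over HFD KC, Cx3cr1pos macs-HFD over HFD KC and HFD KC over STD KC, grouped by list, with a separate horizontal scale per panel. Filled points passed an adjusted p of 0.05. AW112010 at -4.22 and Mir99ahg at 2.84 mark the span of the adipose comparison, and no point of the diet comparison is filled.

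Of 9 nuclear transcripts of the list in the table, 4 reached the floor, namely Malat1, Neat1, Tug1 and Ftx, and Ftx did so in ATMs-HFD alone. Of these 4, 1 rose in ATMs-HFD against HFD KC (Ftx, above) and 2 rose against Cx3cr1pos macs-HFD (Ftx and Neat1). The median log2 fold change of the 4 in ATMs-HFD against HFD KC was 0.59, beside 0.00 over all genes tested. Malat1 and Neat1 had a wide spread among the adipose libraries. Malat1 read 3703, 3388, 2605, 2759 and 8433 CPM in ATMs-HFD against 2449, 3952, 2551, 3525 and 1638 CPM in HFD KC, with a log2 fold change of 0.44 ± 0.31 (adjusted p = 0.26). The hf3 adipose library was the highest of all, and the other 4 overlapped HFD KC. Neat1, the scaffold of paraspeckles, read 101, 124, 119, 134 and 397 CPM in ATMs-HFD, 73.3, 105, 68.4 and 72.3 CPM in Cx3cr1pos macs-HFD and 61.9, 105, 80.1, 145 and 89.5 CPM in HFD KC. The same adipose library was the highest. Neat1 was called in ATMs-HFD against Cx3cr1pos macs-HFD, at 0.996 ± 0.33 (adjusted p = 0.024), and was 0.52 (adjusted p = 0.071) without ATMs-HFD hf3, 0.94 (adjusted p = 0.063) without Cx3cr1pos macs-HFD hf1 and 0.92 (adjusted p = 0.067) without Cx3cr1pos macs-HFD hf3. Tug1 read 91.5 to 212 CPM in ATMs-HFD and 127 to 211 CPM in HFD KC, with a log2 fold change of -0.08 ± 0.21 (adjusted p = 0.78), and its lowest adipose library was hf3.

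The imprinted transcripts Kcnq1ot1 and Snhg14, the only 2 of 9 list members in the table to reach the floor, were called in no comparison by edgeR. At an unadjusted p under 0.05, and by DESeq2, 1 of them was lower in ATMs-HFD against HFD KC and 0 were past the threshold elsewhere. Kcnq1ot1, which silences neighbouring genes on the paternal chromosome, read 9.01, 10.5, 17.2, 17.8 and 26.97 CPM in ATMs-HFD against 14.3, 19.3, 37.95, 37.4 and 20.2 CPM in HFD KC, with a log2 fold change of -0.77 ± 0.32 (adjusted p = 0.057). 1700020I14Rik (Oip5os1), known for directing degradation of miR-7, read 44.04 to 62.1 CPM in ATMs-HFD, 41.5 to 57.2 CPM in Cx3cr1pos macs-HFD, 36.6 to 59.2 CPM in HFD KC and 41.1 to 48.9 CPM in STD KC. Its groups overlapped throughout, with -0.01 ± 0.12 (adjusted p = 0.95) in ATMs-HFD against HFD KC. Dubr had 0.36 ± 0.16 (adjusted p = 0.075) and Cct6a, coding in RefSeq for a chaperonin subunit, -0.09 ± 0.12 (adjusted p = 0.56) in that comparison. Brip1os rose in ATMs-HFD, to 68.01, 58.9, 68.8, 70.1 and 52.9 CPM against 47.3, 44.7, 40.3, 46.1 and 41.2 CPM in HFD KC, with a log2 fold change of 0.46 ± 0.12 (adjusted p = 0.004), without overlap. Adap2os had -0.38 ± 0.14 (adjusted p = 0.027) there, with an adjusted p of 0.06 to 0.12 without ATMs-HFD hf1, hf2 or hf3 or HFD KC hf1, hf2 or hfd2.

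Of the 132 genes, 60 overlap a protein-coding gene on the opposite strand, 11 overlap 1 on the same strand and 15 start within 1 kb of a divergent coding gene without overlapping it. Exon bases are shared with a coding gene on either strand by 53. For 58 opposite-strand pairs whose coding partner reached 5 CPM in a group, the log2 fold changes of transcript and partner in ATMs-HFD against HFD KC had a Pearson r of 0.58 over pairs, given as a description. In 20 pairs both were called in the same direction, in 4 in opposite directions, in 14 the transcript alone, in 11 the partner alone and in 9 neither. For 14 divergent pairs r was 0.45, with 4 pairs called in the same direction and 3 in opposite directions. Pairs share libraries, some genes stand in several pairs, and some share exon bases, whose part in r was not tested.

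Tnfsf13os, picked after its values were seen, lies across 2 neighbouring cytokine genes, of which Tnfsf13 fell with it in adipose macrophages and Tnfsf12 rose. Its log2 fold change in ATMs-HFD against HFD KC was -2.19 ± 0.24 (adjusted p = 1.0e-06), that of Tnfsf13 -1.03 ± 0.20 (adjusted p = 3.9e-04) and that of Tnfsf12 2.97 ± 0.19 (adjusted p = 1.4e-09). It shares 19.9% of its exon bases with Tnfsf13 and 0% with Tnfsf12, and over the 17 libraries the log2 CPM correlated at 0.93 with Tnfsf13 and -0.89 with Tnfsf12, given as a description over libraries that share the 4 groups. Gm14023, also picked so, lies antisense to the interleukin gene Il1a. Gm14023 had -2.76 ± 0.35 (adjusted p = 5.9e-06) and Il1a -5.30 ± 0.23 (adjusted p = 1.5e-11) in that comparison. 5830432E09Rik, antisense to the phosphatase gene Ptpre, read 10.8, 10.6, 8.52, 13.9 and 13.1 CPM in ATMs-HFD, 9.81, 9.22, 9.04 and 8.64 CPM in Cx3cr1pos macs-HFD, 4.41, 3.88, 2.83, 4.55 and 5.15 CPM in HFD KC and 2.56, 2.46 and 2.76 CPM in STD KC. It was picked likewise and rose against HFD KC in both other high fat diet groups, by 1.36 ± 0.15 and 1.15 ± 0.16 on the log2 scale (adjusted p = 1.5e-06 and 1.3e-04).

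**Figure D5:**
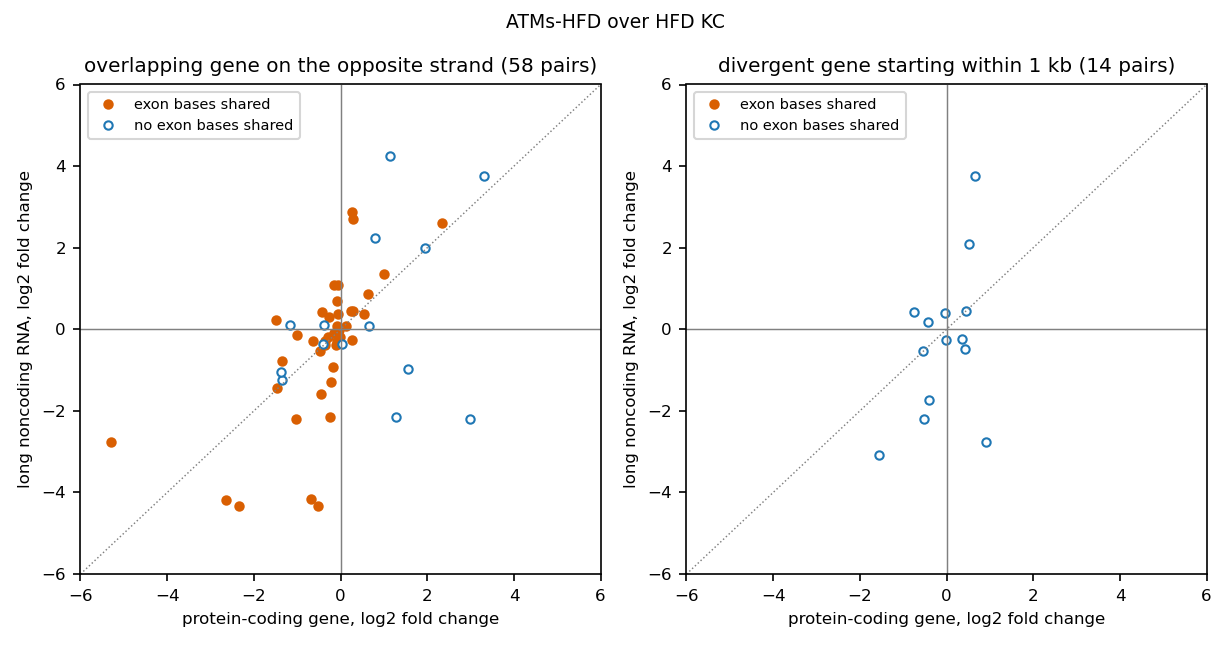
Log2 fold change in ATMs-HFD over HFD KC of each long noncoding RNA (vertical axis) and of its coding partner (horizontal axis), for 58 pairs overlapping on opposite strands (left) and 14 divergent pairs (right); filled points share exon bases and the dotted line marks equal change. Of the opposite-strand pairs, 20 were called in the same direction and 4 in opposite ones, and Tnfsf13os with Tnfsf12 lies at the lower right.

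For the described transcripts called in ATMs-HFD against HFD KC, the nearest coding gene on either side that does not overlap was looked up. The 22 that fell had 44 such neighbours, of which 35 were tested, and 21 of these fell and 5 rose. The 20 that rose had 40, of which 33 were tested, and 10 rose and 6 fell. Over all genes tested, 25.2% fell and 23.8% rose. Bcl2l11, next to the fallen Gm14005, was 1 of the 5 that rose. In ATMs-HFD against Cx3cr1pos macs-HFD, 36 neighbours of fallen transcripts were tested, and 17 fell and 2 rose. Of 27 tested neighbours of risen ones, 5 rose and 6 fell. In Cx3cr1pos macs-HFD against HFD KC, 23 neighbours of fallen ones were tested, and 5 fell and 2 rose. Of 15 tested next to risen ones, 0 rose and 3 fell. Shares over all genes in these comparisons are given above. The examples that follow were picked after their values were seen. Ptgs1, a prostaglandin synthase gene 7.49 kb from Gm13431, had a log2 fold change of -5.22 (adjusted p = 1.6e-12) in ATMs-HFD against HFD KC. Cd55, a complement inhibitor gene 1.84 kb from Gm15675, had -5.79 (adjusted p = 2.3e-07). Sema6d, 40.9 kb from Gm13994, had -4.12 (adjusted p = 5.9e-11), and Tmem51, 1.996 kb from 4930455G09Rik, -2.92 (adjusted p = 4.3e-12). These 4 neighbours fell along with the transcripts, and transcription of each beyond the other's annotated end was not tested.

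Likeness of pattern was measured as Pearson's r of log2 CPM over the 17 libraries, and the 3 most similar of the other 131 genes are given. For AW112010 they were 4930581F22Rik (0.98), Gm13994 (0.97) and Gm15964 (0.96), and for Gm14005 Gm13994 (0.98), 4930581F22Rik (0.98) and Gm13431 (0.97). For Gm28875 they were Gm15261 (0.96), Trerf1 (0.96) and 1810058I24Rik (0.94), and for Mir22hg B230216N24Rik (0.94), Gm26532 (0.93) and Gm15728 (0.92). For Gas5 they were Snhg5 (0.86), Dnmt3aos (0.85) and Zfas1 (0.84), and for Malat1 Neat1 (0.76), Zfas1 (0.72) and Gm26532 (0.69). All points share the 4 groups, so an r near 1 mostly restates the order of groups.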

How the data were processed

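RNA was measured in 17 libraries in 4 groups, grouped by their source label. Per the labels, a SMARTer kit amplified the RNA before single-end sequencing with 50 bp reads. Per the submitters' processing notes, bcl2fastq, STAR 2.0.4b and Subread featureCounts 1.4.5 were used, and the authors deposited raw counts per gene in 40824 entries, of which 276 repeat an identifier (the first entry was kept). The genome build, annotation release, strand setting and use of molecular indexes are not given in the sources used here. Libraries held 25687522 to 38272594 counts, and 3 counts correspond to 0.0784 to 0.117 CPM. Intervals cover counting error only.

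CPM is a gene's counts per 1000000 of its column total. The main test was edgeR 4.0.16 (R 4.3.3): filterByExpr kept 15285 genes, with TMM scaling, 1 fit over all libraries, glmQLFTest, two-sided, and Benjamini-Hochberg adjustment over all genes kept. Standard errors are the log2 fold change over the root of F. DESeq2 1.42.0 was an alternative, beside RLE factors, library totals, no filter, other floors of 2 and 10 CPM, subsets of libraries, and each library left out. GENCODE M21 gave exon lengths, overlaps and neighbours, and RefSeq (GRCm38.p6) gave sequences and names, and neither need be the authors' annotation. Of the per-sample columns, 0 were unused.

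Library names repeat across groups. Of the deviations from group means, same-named HFD KC and Cx3cr1pos macs-HFD libraries correlated at 0.301 (hfd2), 0.174 (hf1), 0.166 (hf2) and 0.233 (hf3), all over 0.1, so that comparison was also fitted with the name as a block.

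The 132 genes and the lists were chosen with earlier results of these data known. Genes named are the 12 proper-named ones of highest level, the 6 largest called rises and falls per comparison without overlap and with 10 CPM or more, and all list members. Of the others, 9 described after their values were seen are marked so.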

Additional observations from a re-analysis of the deposited data

Results flagged for a closer look

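Of 177 groups of 4 or 5 values, for the 59 genes described by name, 15 held a library whose gap to the nearest other, as a fraction of the group's range, passed Dixon's 95% limit; chance gives about 1 in 20. For 1 of the 15, 5330411J11Rik in ATMs-HFD, the gap is set by construction, since 4 libraries were at 0. ATMs-HFD hf3 gave 5 of the 15 and was the highest in each: Neat1 at 397 CPM against 101 to 134 CPM (gap 0.887), Malat1 at 8433 CPM against 2605 to 3703 CPM (0.812), 1700020I14Rik at 62.1 CPM against 44.0 to 47.3 CPM (0.821), Gm26532 at 64.7 CPM against 22.4 to 30.7 CPM (0.803) and Zfas1 at 54.5 CPM against 34.9 to 39.8 CPM (0.749).

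In the other ATMs-HFD libraries, 4930581F22Rik was highest in hf2 (0.938 CPM, gap 0.745), and 5330411J11Rik had its 1 count in hfd2 (gap 1). In Cx3cr1pos macs-HFD, hf2 was highest for Neat1 (105 CPM, 0.868) and 4921531C22Rik (5.02 CPM, 0.891), and hfd2 for Snhg6 (13.6 CPM, 0.843). In HFD KC, hfd1 was lowest for Gas5 (124 CPM against 143 to 147 CPM, 0.829) and Snhg5 (13.8 CPM, 0.811), hfd2 was highest for Mir17hg (2.77 CPM, 0.757) and hf3 was highest for Gm28875 (7.95 CPM against 2.37 to 3.70 CPM, 0.761) and lowest for F630028O10Rik (3.49 CPM against 5.77 to 6.57 CPM, 0.74).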

How the results depend on the processing

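No called log2 fold change of a named gene changed sign under any alternative that was run. Calls held in every alternative for 69 of 92 genes in ATMs-HFD against HFD KC, 57 of 77 in ATMs-HFD against Cx3cr1pos macs-HFD, 20 of 28 in Cx3cr1pos macs-HFD against HFD KC and 1 of 4 in HFD KC against STD KC. For the last, the count was 11 with DESeq2, 1 with CD68-labelled HFD KC alone, 2 with frac_neg HFD KC alone, 1 with only the groups compared fitted and 2 without the genes that share exon bases with a coding gene. Leaving out 1 library gave 1 to 6, with 1 without std2 or std3. It gave 88 to 92 in ATMs-HFD against HFD KC, 67 to 73 against Cx3cr1pos macs-HFD and 23 to 30 in Cx3cr1pos macs-HFD against HFD KC. The number of long noncoding RNA genes was 272 at a floor of 2 CPM and 73 at 10 CPM. At 10 CPM, 52 were called in ATMs-HFD against HFD KC and 43 against Cx3cr1pos macs-HFD. Without exon-sharing genes, an alternative chosen after seeing the data as was the next, 57 of 79 were called against HFD KC and 50 against Cx3cr1pos macs-HFD, fewer because fewer genes are counted. Leaving out the 12 genes coding in RefSeq moved no count by over 1.5 times.

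With the name as a block, 29 genes were called in Cx3cr1pos macs-HFD against HFD KC: Bvht, D7Ertd128e and Gm26772 were lost and 4930481A15Rik, 4930581F22Rik, Gm13710 and Gm26522 gained. In the adipose comparisons same-named libraries correlated at -0.02 to 0.204, not all over 0.1. Whether names pair the libraries there cannot be told from these values, and the block gave 93 and 77 calls. The CD68 label and the hf names coincide within HFD KC and cannot be told apart. Precision is limited at the low end: 3 counts are 0.0784 to 0.117 CPM, and there are 3 to 5 libraries a group.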

Other observations

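Gt(ROSA)26Sor, the transcript of the locus commonly used for transgenes and picked after its values were seen, read 15.8, 16.3, 18.3, 17.6 and 19.5 CPM in ATMs-HFD, 7.82, 9.302, 8.49 and 8.44 CPM in Cx3cr1pos macs-HFD, 11.7, 10.7, 15.05, 11.8 and 12.4 CPM in HFD KC and 13.996, 13.2 and 15.3 CPM in STD KC. Its log2 fold change was -0.52 ± 0.12 (adjusted p = 0.0061) in Cx3cr1pos macs-HFD against HFD KC and 0.42 ± 0.11 (adjusted p = 0.004) in ATMs-HFD against HFD KC, neither with overlapping libraries.

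1700006J14Rik, picked likewise, was lowest in the reporter-positive group without overlap, at 1.48, 2.15, 1.901, 2.73 and 1.17 CPM in ATMs-HFD, 0.0389, 0.261, 0.215 and 0.359 CPM in Cx3cr1pos macs-HFD and 2.87, 1.004, 4.47, 4.37 and 3.85 CPM in HFD KC. The log2 fold change was -3.85 ± 0.51 (adjusted p = 7.9e-05) in Cx3cr1pos macs-HFD against HFD KC and 2.96 ± 0.50 (adjusted p = 1.8e-04) in ATMs-HFD against Cx3cr1pos macs-HFD.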
